A study of Mus musculus with 8 samples.

Results

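The Dlk1-Meg3 cluster is a group of imprinted genes on mouse chromosome 12, each read mainly from the chromosome of 1 parent. Its 7 members here were the rows of the deposited count table named Dlk1, Rtl1, Meg3, Rian, Mirg, B830012L14Rik and Gm37899, out of 22065 rows that carry a gene symbol. They had been picked for their spread across the 8 libraries, so that spread, and the levels behind it, are given as a description.

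The RNA was total RNA from hematopoietic stem cells (HSCs) of C57BL/6 mice, with 100 sorted cells in a library, 4 libraries labelled Mitol knockout and 4 labelled control. According to the study's methods the knockout group carried Mitol Flox/Flox with MX1-cre (Mitol Δ/Δ HSCs) and the control group Mitol Flox/Flox without cre. Both groups received Poly:IC, which switches on the interferon-responsive Mx1 promoter, and were taken 1 week later at a labelled age of 8 to 10 weeks. Mx1 is not restricted to HSCs. All mice carried the flox allele and the Mitol Δ/Δ group alone carried cre, so an effect of cre itself and of the deletion cannot be told apart. The labels do not say whether libraries came from separate mice, so p-values measure the spread between these libraries. Mitol is the former name of Marchf5, a ubiquitin ligase of the mitochondrial outer membrane. Marchf5 had 276, 232, 308 and 281 normalized read counts in Mitol Δ/Δ libraries 1 to 4 and 299, 312, 333 and 262 in control libraries 1 to 4. The groups overlapped (edgeR, log2 fold change -0.15, standard error 0.13, adjusted p = 0.498), so this gene total does not check the labels. A count over the whole gene does not separate deleted exons from the remaining ones, and libraries are named below as labelled.

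Imprinting marks 1 parental copy of a gene so that the copies from mother and father are not used alike. In this cluster the paternal copy gives the protein-coding genes. Dlk1 encodes a transmembrane protein related to the ligands of Notch receptors, and Rtl1 encodes a protein derived from a retrotransposon. The maternal copy gives long noncoding RNAs, of which Meg3 is the first, Rian hosts small nucleolar RNAs and Mirg hosts microRNAs. A control region between Dlk1 and Meg3, methylated on the paternal copy, sets which copy is used. In mouse long-term HSCs the noncoding RNAs of the cluster are known for restraining PI3K-mTOR signalling. B830012L14Rik and Gm37899 lie between Rian and Mirg on the same strand and were grouped with them by position. The counts do not separate the parental copies, so paternal and maternal name the copy that is known to be used, not one that was measured.

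The cluster spans 297.1 kb on GRCm39 chromosome 12. Dlk1 lies at chr12:109418749-109429262 on the plus strand. Meg3 lies at chr12:109506877-109538165, and Rtl1 at chr12:109555627-109582007 on the minus strand. Rian (chr12:109570242-109628150), Gm37899 (chr12:109635303-109644019), B830012L14Rik (chr12:109642711-109680989) and Mirg (chr12:109696198-109715898) follow on the plus strand. The span of Rtl1 overlaps that of Rian, and Gm37899 and B830012L14Rik share 815 exon bases. Reads from such pairs may be split between them, because the strand setting of the counting was not given in the sources used here. Of 9 microRNA genes inside the Rtl1 span, 8 lie on the other strand, so the Rtl1 row may hold reads of maternal transcripts.

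The sequences before the starts of Dlk1 and Meg3 are shown because these genes are the first paternal and the first maternal gene and did not keep a fixed ratio in these libraries. The windows are from RefSeq and were matched to GRCm39, at chr12:109418499-109418748 for Dlk1, which holds 250 bases before the start, and at chr12:109506629-109506928 for Meg3, which runs on 50 bases past it. Both are on the plus strand. Capitals mark matches on either strand to the core of the cyclic AMP response element, TGACGT, to the letters of a TATA box, TATAAA, and to those of a CCAAT box.
Dlk1: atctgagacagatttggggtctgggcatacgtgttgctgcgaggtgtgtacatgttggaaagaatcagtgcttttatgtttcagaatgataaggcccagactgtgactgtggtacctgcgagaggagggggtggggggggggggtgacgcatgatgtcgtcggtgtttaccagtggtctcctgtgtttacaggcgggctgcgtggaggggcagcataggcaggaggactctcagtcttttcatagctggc
Meg3: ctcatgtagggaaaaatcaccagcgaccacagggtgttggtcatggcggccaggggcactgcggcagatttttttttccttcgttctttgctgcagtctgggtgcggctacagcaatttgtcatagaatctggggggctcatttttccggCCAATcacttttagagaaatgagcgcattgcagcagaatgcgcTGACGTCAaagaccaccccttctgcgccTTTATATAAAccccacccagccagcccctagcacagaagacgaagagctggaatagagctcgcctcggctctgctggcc
The Meg3 window holds TGACGTCA, which reads as TGACGT on both strands, and TATAAA on both strands in overlapping letters. It also holds CCAAT. The Dlk1 window holds none of these. A second RefSeq window of Meg3, at chr12:109511031-109511330 and not shown, holds none of them either. Among 32851 RefSeq windows of 300 bases, 1.79% hold TGACGTCA, 7.51% TGACGT, 13.6% TATAAA and 37.4% CCAAT on either strand. A match to letters is a description and does not show that a factor binds there.

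The 7 members varied together across libraries, and their levels overlapped between the groups. Mitol Δ/Δ libraries 3 and 4 held the highest levels of all 7 genes, and the remaining Mitol Δ/Δ libraries stood near or under the controls for the maternal genes. The summed counts of the 7 genes, scaled to a library total of 1000000 (CPM), were 34.5, 141, 849 and 1451 in Mitol Δ/Δ libraries 1 to 4. In control libraries 1 to 4 they were 70.4, 132, 155 and 196 CPM, so the control range lay inside that of the Mitol Δ/Δ libraries. Values below are in the order of libraries 1 to 4 of each group, as read counts divided by the size factor of the library. Fewer cells that express a gene and less RNA in each such cell cannot be told apart in these libraries.

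Dlk1 had 84.5, 213, 773 and 3132 normalized read counts in Mitol Δ/Δ HSCs and 55.4, 45.8, 53.7 and 101 in control HSCs. The lowest Mitol Δ/Δ library lay under the highest control, and the other 3 lay above every control. Library 4 was 31.1 times the highest control library. Rtl1 had 5.48, 48.8, 362 and 681 in Mitol Δ/Δ HSCs and 26.4, 30.9, 95.1 and 97.0 in control HSCs. Its lowest level of all 8 libraries was in Mitol Δ/Δ library 1, which was 0.208 times the lowest control.

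Meg3 had 102, 551, 2982 and 5074 normalized read counts in Mitol Δ/Δ HSCs and 375, 442, 691 and 742 in control HSCs. Library 4 was 49.9 times library 1 within the Mitol Δ/Δ group, whereas the highest control was 1.98 times the lowest. Rian had 119, 429, 2633 and 3619 in Mitol Δ/Δ HSCs and 177, 486, 368 and 476 in control HSCs. Mirg had 1.57, 44.7, 240 and 437 in Mitol Δ/Δ HSCs and 11.9, 52.1, 31.1 and 56.6 in control HSCs. Its range within the Mitol Δ/Δ group was 279-fold, from a library with 2 reads. These 3 noncoding genes shared the same 2 highest libraries, and Mitol Δ/Δ library 1 was the lowest for each.

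B830012L14Rik had 12.5, 38.5, 724 and 731 normalized read counts in Mitol Δ/Δ HSCs and 9.23, 92.6, 113 and 155 in control HSCs. Gm37899, which shares exon bases with it, had 10.2, 45.7, 407 and 471 in Mitol Δ/Δ HSCs and 15.8, 66.0, 96.1 and 92.5 in control HSCs. Control library 1 was far under the other controls for both, and for B830012L14Rik it was the lowest of all libraries. Mitol Δ/Δ library 2 lay inside the control range for all 5 maternal genes and for Rtl1, and above every control for Dlk1 alone among the 7.

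**Figure D1:**
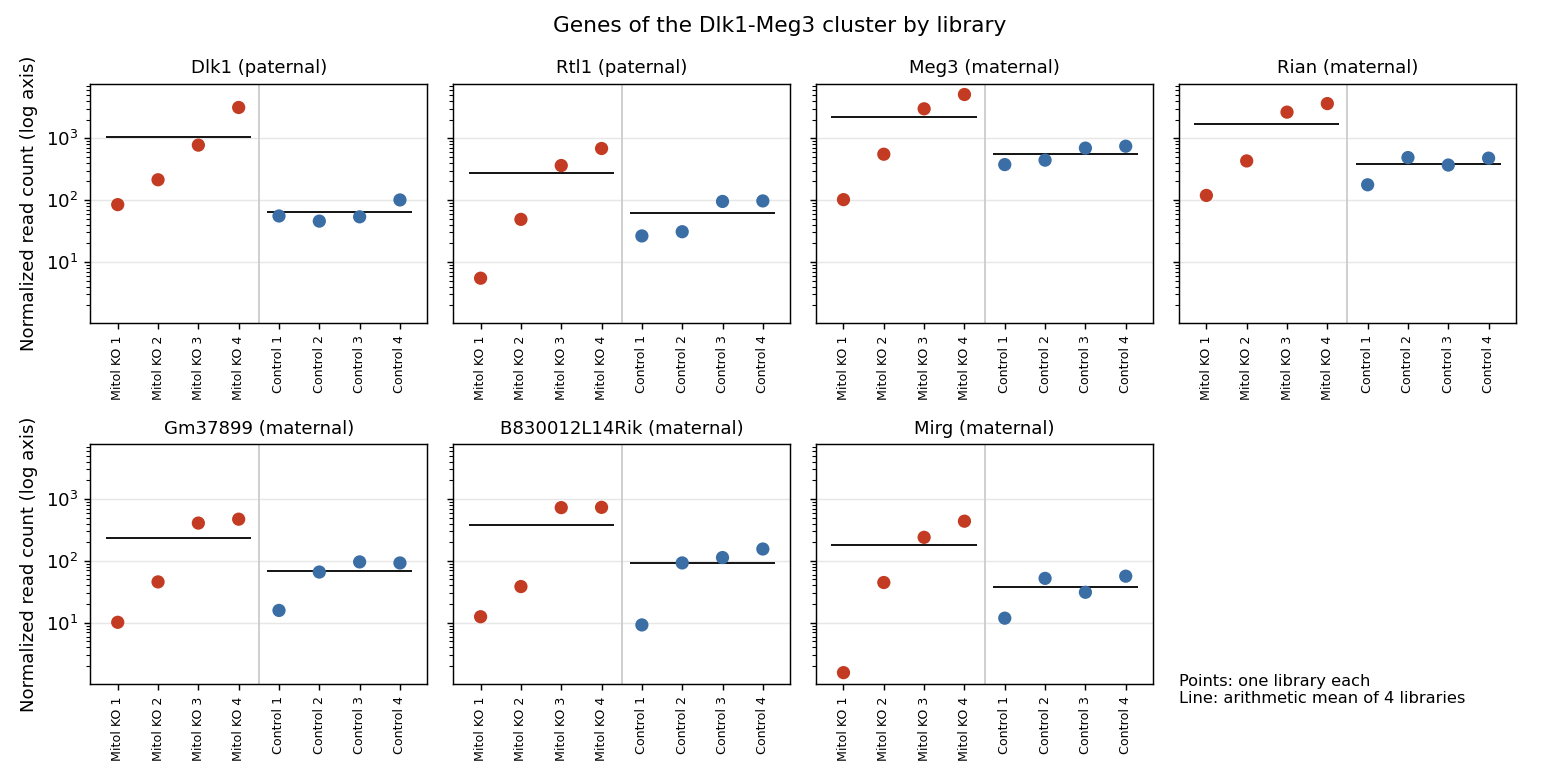
Normalized read count of each cluster gene (log axis) in the 4 libraries labelled Mitol knockout (red) and the 4 control libraries (blue), with the arithmetic mean of each group as a line. Mitol Δ/Δ libraries 3 and 4 are the highest for every gene, and the groups overlap for all 7.

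The fit over all 16444 tested genes was used to compare Mitol Δ/Δ with control HSCs, and at an adjusted p under 0.05 it called 4.68% of genes higher in Mitol Δ/Δ HSCs, 3.75% lower and 8.43% in either direction. All 7 members passed the filter on low counts. Dlk1 was the single member called, with a log2 fold change of 4.00 (edgeR, standard error 0.91, adjusted p = 0.0241, above every control in 3 of 4 libraries). The members were picked for their spread across the same libraries, so nothing is read from that count. The log2 fold changes of the others were 2.09 for Rtl1, 1.93 for Meg3, 2.15 for Rian, 2.20 for Mirg, 1.98 for B830012L14Rik and 1.74 for Gm37899, with 2 of 4 libraries above every control for each. Their standard errors were between 0.76 and 0.97 and their adjusted p between 0.0978 and 0.218 in edgeR. DESeq2 gave 4.04 for Dlk1 (adjusted p = 0.00179) and between 1.79 and 2.25 for the others, none of them called. Limma-voom gave smaller values. In limma-voom the log2 fold changes were 2.76 for Dlk1 (adjusted p = 0.213, so its call was lost), 0.49 for Rtl1, 0.70 for Meg3, 1.12 for Rian, 0.40 for Mirg, 0.68 for B830012L14Rik and 0.54 for Gm37899, and 0 of 7 were called. The median log2 fold change was 2.09 over the members and -0.02 over all tested genes. None of the 7 had groups that did not overlap, against 15.4% of all tested genes in either direction and 8.17% with the Mitol Δ/Δ group higher.

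These fold changes rested on Mitol Δ/Δ libraries 3 and 4. With both left out, Dlk1 had a log2 fold change of 1.20 (edgeR, adjusted p = 0.0596), and the other 6 members turned to values between -0.48 and -1.91, none past the threshold. The call of Dlk1 was lost without control library 2 (log2 fold change 3.87, edgeR adjusted p = 0.0768), control library 3 (3.92, adjusted p = 0.0635) or control library 4 (4.33, adjusted p = 0.0594). Without Mitol Δ/Δ library 4 the Dlk1 log2 fold change was 2.47. Without Mitol Δ/Δ library 1, Meg3 (2.33, edgeR adjusted p = 0.0385), Rian (2.54, adjusted p = 0.0310) and Mirg (2.62, adjusted p = 0.0439) passed the threshold. By a 2-sided exact permutation test the mean log2 CPM of Dlk1 was higher by 2.86 in Mitol Δ/Δ HSCs (p = 0.0571), where 0.0286 is the smallest p that 4 libraries against 4 allow. The differences of the other 6 members were between 0.81 and 1.23 on that scale (2-sided exact permutation test, p between 0.371 and 0.657).

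The spread between libraries of the same group was wide for the cluster and not for the genes beside it. The members were picked for their spread across these libraries, so this contrast was largely set in advance and nothing is read from it. The SD of log2 CPM within groups was between 1.64 and 2.40 over the 7 members, at ranks 7 to 39 of 16444 genes, with a median of 1.99. The median over all tested genes was 0.26. Within 1 Mb on either side of the cluster, 18 genes were tested, 10 before it and 8 after it, and their SD was between 0.09 and 0.77 with a median of 0.31. Dio3, the imprinted thyroid hormone deiodinase gene at the far end of the domain, and its antisense transcript had no row in the table. Yy1, which encodes a zinc finger transcription factor, had 1937, 1797, 1850 and 1770 normalized read counts in Mitol Δ/Δ HSCs and 1423, 1667, 1653 and 1760 in control HSCs. Dync1h1, the heavy chain of cytoplasmic dynein, had 9059, 9412, 10148 and 10675 in Mitol Δ/Δ HSCs and 10428, 9800, 9936 and 8381 in control HSCs. Of 12 genes in the list of domain neighbours, 1 passed the threshold: Hsp90aa1, a cytosolic chaperone, was higher in Mitol Δ/Δ HSCs (edgeR, log2 fold change 0.86, standard error 0.15, adjusted p = 0.00963, 4 of 4 libraries). The median log2 fold change of that list was -0.07, and 8.43% of all tested genes were called in either direction.

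**Figure D2:**
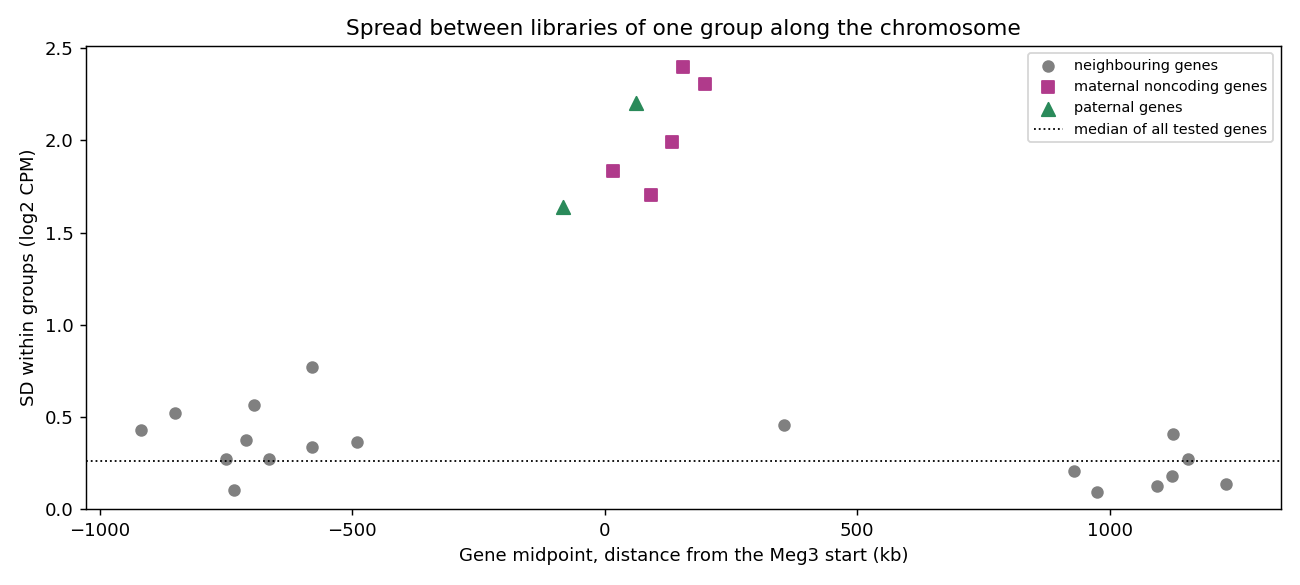
SD of log2 CPM between libraries of the same group (vertical axis) for the 7 cluster genes and 18 tested neighbours, placed by the distance of each gene's midpoint from the Meg3 start in kb. The cluster genes, which were picked for their spread, lie between 1.64 and 2.40, and every neighbour lies at or under 0.77.

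Paternal and maternal genes could be set against each other within a library, where no scaling between libraries is needed. The share of Dlk1 in the reads of Dlk1 and Meg3 together was 45.4% in Mitol Δ/Δ library 1, with a 95% Clopper-Pearson interval of 38.9 to 51.9%. It was 27.9% (24.7 to 31.3%), 20.6% (19.4 to 21.9%) and 38.2% (37.1 to 39.3%) in Mitol Δ/Δ libraries 2, 3 and 4. In control libraries 1 to 4 it was 12.9% (9.45 to 17.0%), 9.39% (6.88 to 12.4%), 7.21% (5.50 to 9.24%) and 11.9% (9.93 to 14.2%). Every Mitol Δ/Δ library lay above every control, and the intervals of the lowest Mitol Δ/Δ and the highest control library did not overlap. These intervals treat each read as a separate draw and do not cover the spread between libraries. PCR copies of a molecule were not told apart, so the intervals are likely too narrow even for counting error. The group means were 33.0% ± 10.96 (SD, n = 4) and 10.4% ± 2.57 (SD, n = 4). The share was higher also in libraries 1 and 2, whose total cluster level was not above the controls, and it was highest in library 1, where the cluster was lowest. In library 1 Dlk1 lay inside the control range and Meg3 was 0.272 times the lowest control, so a low Meg3 made that share high. In library 4 Dlk1 was 31.1 times and Meg3 6.84 times the highest control. The same direction of the share thus came from different levels.

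The Rtl1 row did not share this pattern. It may hold reads of maternal transcripts from the other strand, so it is not a clean measure of the paternal copy. The share of Rtl1 in the reads of Rtl1 and Meg3 was 5.11%, 8.15%, 10.8% and 11.8% in Mitol Δ/Δ libraries 1 to 4 and 6.58%, 6.53%, 12.1% and 11.6% in control libraries 1 to 4. The groups overlapped, with means of 8.98% ± 3.01 and 9.19% ± 3.05 (SD, n = 4 each). The log2 ratio of Rtl1 to Meg3 reads differed by -0.05 between the group means, and that of Dlk1 to Meg3 by 2.08. Over all members, the log2 ratio of the 2 paternal genes to the 5 maternal genes was -1.44, -2.08, -2.62 and -1.44 in Mitol Δ/Δ libraries 1 to 4 and -2.85, -3.89, -3.13 and -2.95 in control libraries 1 to 4. These groups did not overlap, and the difference of their means was 1.31. Dlk1 over the 5 maternal genes without Rtl1 gave 1.94. No test was made of these ratios, because they are scores over members picked with results known.

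**Figure D3:**
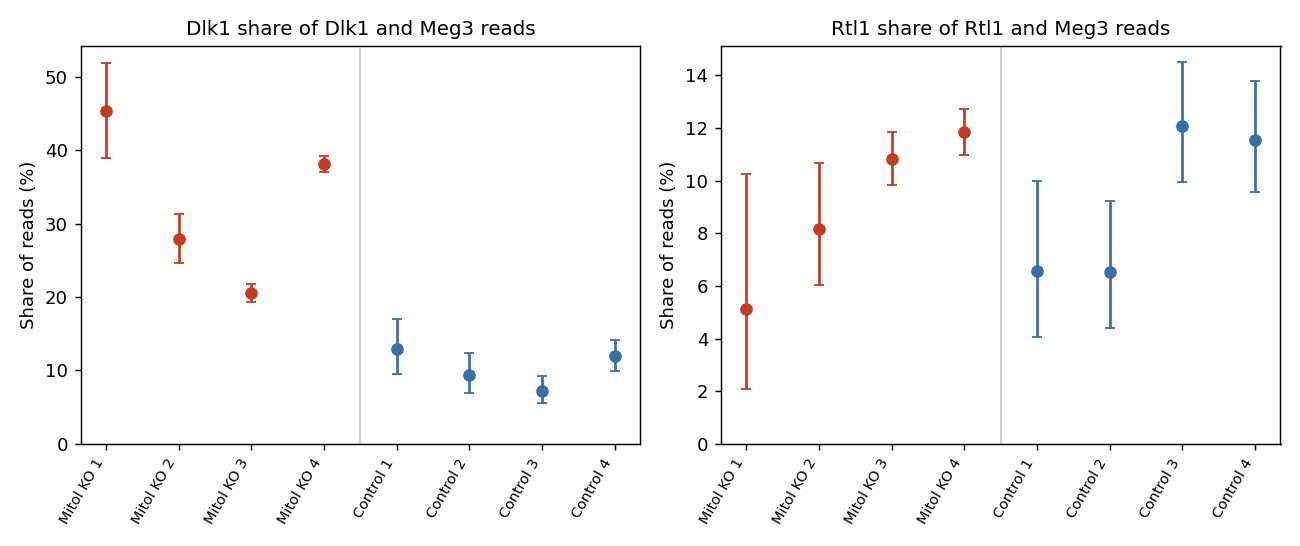
Share of Dlk1 reads in Dlk1 and Meg3 reads (left) and of Rtl1 reads in Rtl1 and Meg3 reads (right), in percent, for each library (red Mitol Δ/Δ, blue control), with 95% Clopper-Pearson intervals as bars. The Dlk1 share is between 20.6 and 45.4% in Mitol Δ/Δ libraries and between 7.21 and 12.9% in controls, and the Rtl1 shares overlap.

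Levels were also compared per length, as RPKM, the CPM divided by the annotated exon length in kb. The exon total of Meg3 in GENCODE joins many isoforms, which lowers its RPKM. Over the 8 libraries the median RPKM was 3.39 for Meg3, 1.67 for Dlk1, 1.52 for Rian and 1.12 for Rtl1. It was 1.00 for Gm37899, 0.95 for B830012L14Rik and 0.532 for Mirg. All 7 ranges overlapped widely, since each gene varied more between libraries than these medians differ. In control libraries the RPKM of Dlk1 was 0.965, 0.825, 0.954 and 1.90, and that of Meg3 was 2.04, 2.49, 3.84 and 4.37. In Mitol Δ/Δ libraries Dlk1 reached 1.44, 3.63, 13.4 and 53.2 and Meg3 0.543, 2.93, 16.2 and 26.97. Meg3 was thus above Dlk1 in every control library and in Mitol Δ/Δ library 3.

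The maternal genes followed each other closely across the 8 libraries. Pearson's r of log2 CPM was between 0.91 and 0.99 over the 10 pairs of maternal genes. The Rtl1 row, which may hold maternal reads of the other strand, had r between 0.92 and 0.99 with the maternal genes. Dlk1, the other paternal gene, had r between 0.73 and 0.87 with them. Meg3 and Rian had r = 0.96 and Spearman's rho = 0.83. Without the 2 libraries farthest from the Meg3 median (Mitol Δ/Δ 1 and 4) they had r = 0.94 and rho = 0.60. Meg3 and Mirg had r = 0.97 and rho = 0.90, and r = 0.89 and rho = 0.77 without those libraries. Dlk1 and Meg3 had r = 0.82 and rho = 0.67, and Dlk1 and Rtl1 had r = 0.79 and rho = 0.67. Without Mitol Δ/Δ libraries 3 and 4, the farthest from the Dlk1 median, these fell to r = 0.07 and 0.09, so both relations rest on those libraries. The maternal pairs kept library 3 in their smaller set, so the values after removal are not comparable between the pairs. As deviations from the group mean, r was 0.97 for Meg3 and Rian, 0.97 for Meg3 and Mirg, 0.95 for Dlk1 and Meg3 and 0.93 for Dlk1 and Rtl1. All are descriptions with no p, since the genes were picked for spread over the same libraries and share library size.

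Other transcripts of the cluster had not been used to pick the members, and they are given as a description. By position the table held 30 other rows inside the cluster, of 27 microRNA genes, 2 small nucleolar RNA genes (Gm24564 and Gm23787) and the noncoding gene Gm34081, which lies between Dlk1 and Meg3. Of the microRNA rows, 25 were in the table only through their reads in Mitol Δ/Δ libraries 3 and 4. None passed the filter on low counts, and no test was made. The reads were from total RNA and mark the precursors, not mature microRNAs, and many lie in the introns or exons of the members. The annotation holds 66 microRNA genes there, and rows under 11 reads in total are absent from the table.

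All 27 rows matched a microRNA gene in RefSeq. The sequences below belong to Mir665, the row with the most reads (88 over the 8 libraries), to Mir493, and to 3 of the 4 pairs of rows whose mature microRNAs share a seed. The seed, bases 2 to 8 from the 5′ end, is in capitals, and it is the part that pairs with a target.
miR-665-3p: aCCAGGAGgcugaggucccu
miR-493-3p: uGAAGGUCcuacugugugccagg
miR-379-5p: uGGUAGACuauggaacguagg
miR-1193-5p: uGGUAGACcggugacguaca
miR-379-3p: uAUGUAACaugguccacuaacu
miR-411-3p: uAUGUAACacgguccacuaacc
miR-376b-5p: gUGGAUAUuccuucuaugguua
miR-376c-5p: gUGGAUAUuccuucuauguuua
MiR-379-5p and miR-1193-5p share GGUAGAC, miR-379-3p and miR-411-3p share AUGUAAC, and miR-376b-5p and miR-376c-5p share UGGAUAU. On GRCm39 these are plus-strand sequences, with miR-665-3p at chr12:109552802-109552821, miR-493-3p at chr12:109546717-109546739, miR-379-5p at chr12:109675499-109675519 and miR-379-3p at chr12:109675536-109675557. MiR-1193-5p is at chr12:109682150-109682169, miR-411-3p at chr12:109676659-109676680, miR-376b-5p at chr12:109689905-109689926 and miR-376c-5p at chr12:109689167-109689188. The counts do not say which arm of a hairpin was used.

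The 27 microRNA rows together had 0, 24, 165 and 291 reads in Mitol Δ/Δ libraries 1 to 4 and 1, 18, 47 and 49 in control libraries 1 to 4. Mitol Δ/Δ library 1 was thus at 0 of 12398138 reads, which allows up to 0.242 CPM, and library 4 was at 31.6 CPM. The control libraries had 0.139, 2.08, 4.74 and 5.003 CPM. Mir665 had 0, 7, 24 and 45 reads in Mitol Δ/Δ libraries and 0, 0, 4 and 8 in controls. Of the 27 rows, 25 would have fallen under the 11 reads of the lowest row in the table without Mitol Δ/Δ libraries 3 and 4, so the table held them largely because they were high there, and nothing is read from these sums on those libraries. Mir665 had 19 reads in the other 6 libraries and would have stayed. The 2 small nucleolar RNA rows had 0, 4, 47 and 54 reads in Mitol Δ/Δ libraries and 1, 5, 8 and 11 in controls, in the same order of libraries within each group as the microRNA rows. These rows overlap or neighbour the maternal genes and are no separate sample of cells.

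Gm34081 had 4, 10, 29 and 49 reads in Mitol Δ/Δ libraries and 1, 2, 4 and 2 in control libraries. It was thus detected in Mitol Δ/Δ library 1 at 0.323 CPM, where no microRNA row was, and its control values were between 0.139 and 0.404 CPM. Like Dlk1, it was above every control in Mitol Δ/Δ libraries 2, 3 and 4.

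**Figure D4:**
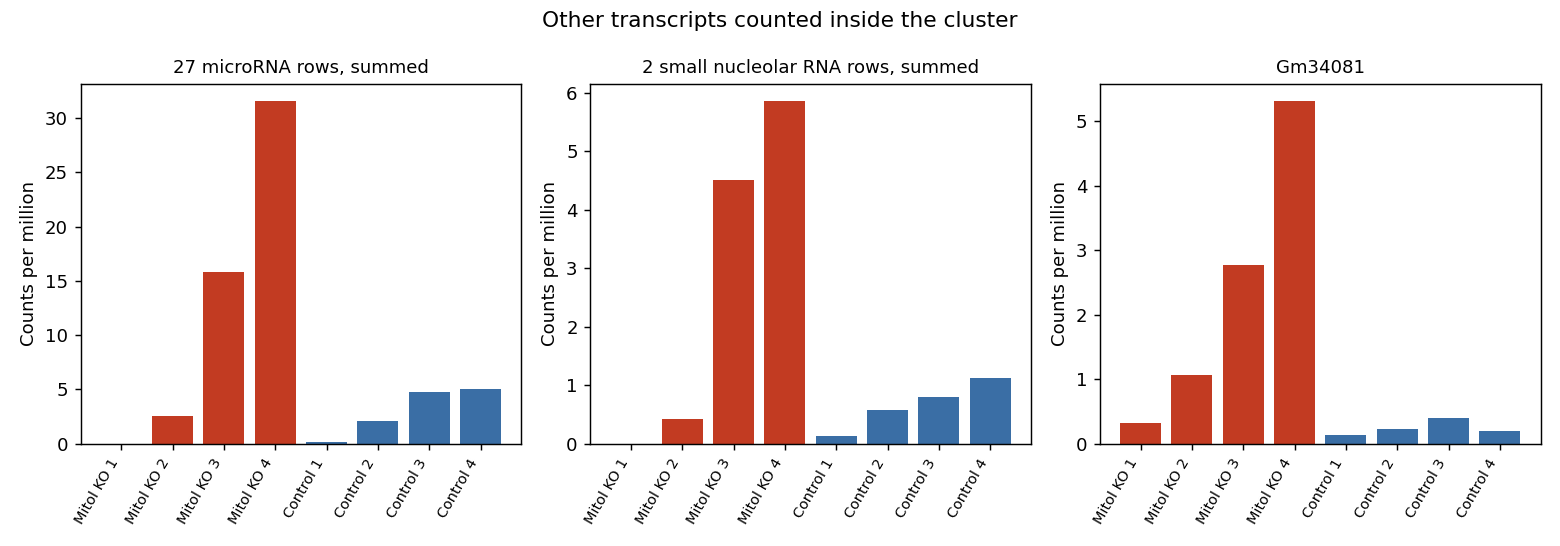
Counts in CPM of the 27 microRNA rows (summed), the 2 small nucleolar RNA rows (summed) and Gm34081 in each library (bars, red Mitol Δ/Δ, blue control). The microRNA sum is 0 in Mitol Δ/Δ library 1, 31.6 in library 4 and at most 5.003 in the controls. Of the 27 microRNA rows, 25 were in the table only through their reads in Mitol Δ/Δ libraries 3 and 4.

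The labelled cell type was checked against marker lists, with summed normalized read counts. All 12 HSC markers were in the table, with sums of 34813 to 39121 in Mitol Δ/Δ and 49416 to 55970 in control HSCs. In Mitol Δ/Δ HSCs 4 fell, among them Kit (log2 fold change -0.75), the receptor for stem cell factor, Hlf (-0.79), a transcription factor of HSCs, and Gata2 (-0.39), a zinc finger transcription factor, each with an edgeR adjusted p at or under 0.0287. Over all tested genes edgeR called 3.75% lower. Of the HSC markers, DESeq2 called 5 lower and 2 higher, and limma-voom 5 lower and 0 higher. Those higher in DESeq2 had the order of the cluster within the Mitol Δ/Δ group. Slamf1, the CD150 gene of the sort, had 412, 480, 537 and 669 in Mitol Δ/Δ and 381, 410, 320 and 299 in control HSCs (log2 fold change 0.56, edgeR adjusted p = 0.0501). Ly6a, which encodes Sca-1, had 574, 689, 1078 and 1356 against 542, 634, 524 and 463 (log2 fold change 0.76, edgeR adjusted p = 0.0605). Of 17 stromal and osteolineage markers 10 were in the table. Their sums were 2184, 2197, 2344 and 2644 in Mitol Δ/Δ and 2580 to 3125 in control HSCs. Runx2, which encodes a transcription factor, made up most of these sums, with 1772, 1651, 1719 and 1983 in Mitol Δ/Δ and 2118, 2144, 2083 and 2040 in control HSCs. Within the Mitol Δ/Δ group some of the other members had the order of the cluster and some did not. Pdgfrb, a growth factor receptor, had 98.6, 139, 245 and 261 against 128, 129, 109 and 260 in controls, and Col1a2, a collagen, had 16.4, 23.9, 51.3 and 87.8 against 44.8, 66.0, 31.1 and 128. Postn had 35.2, 111, 6.41 and 0 against 2.64, 0, 0 and 74.5 in controls. Cxcl12 had 10.2, 4.16, 3.66 and 0 against 5.28, 0, 6.59 and 8.08. Lepr, Col3a1, Adipoq, Lum, Sp7, Bglap and Ibsp had no row. In that list Sparc, a matrix protein, rose (log2 fold change 3.46, edgeR adjusted p = 0.00568) and Bgn, a proteoglycan, fell (-0.80, adjusted p = 0.0335). The 9 endothelial markers had sums of 3434, 4216, 4493 and 5577 in Mitol Δ/Δ and 3846 to 5807 in control HSCs. Of 8 tested, 0 passed the threshold in edgeR, DESeq2 or limma-voom, and 0 had an unadjusted p under 0.05 in edgeR. Of 10 neutrophil and monocyte, 8 B-lineage, 8 T-lineage and 8 mast cell and basophil markers, 8, 4, 3 and 2 were in the table. Of the 2, 1, 2 and 1 that were tested 0 passed the threshold in edgeR, while 1 neutrophil and monocyte marker was higher at an unadjusted p under 0.05 and past the threshold of DESeq2. Their sums were 549 to 1042 against 423 to 663, 136 to 150 against 145 to 204, 189 to 259 against 172 to 200, and 11.4 to 27.5 against 11.3 to 28.7.

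Megakaryocyte, erythroid and neutrophil and monocyte marker sums were, like the cluster, highest in Mitol Δ/Δ libraries 3 and 4. The stromal and endothelial sums also rose from Mitol Δ/Δ library 1 to 4, but did not pass the highest control. The 5 megakaryocyte markers in the table, of 6, summed to 587, 635, 2298 and 3414 in Mitol Δ/Δ libraries 1 to 4 and to 1076, 1492, 1779 and 1356 in controls. Itga2b, an integrin of the platelet lineage, had 286, 351, 1111 and 1440 against 560, 519, 570 and 589. Itgb3, its partner, had 212, 196, 1066 and 1771 against 360, 725, 1026 and 550. Pf4, a platelet chemokine, fell in Mitol Δ/Δ HSCs (log2 fold change -1.69, edgeR adjusted p = 0.0202) and was at 17.2, 13.5, 10.985 and 11.6 there, so it did not follow the cluster. The 8 erythroid markers summed to 918, 957, 3410 and 2246 in Mitol Δ/Δ libraries and to 737, 683, 630 and 256 in controls. Hbb-bt, a beta globin, rose (log2 fold change 1.29, edgeR adjusted p = 0.0442), while DESeq2 called 0 of the 4 erythroid markers tested and limma-voom called 1. The neutrophil and monocyte sums were 549, 661, 873 and 1042 in Mitol Δ/Δ libraries and 663, 557, 423 and 456 in controls. Prtn3, a granule protease, carried them, with 462, 573, 817 and 1006 against 566, 443, 333 and 332 (log2 fold change 0.76, edgeR adjusted p = 0.0674), while Elane and Mpo, defining granule genes, were at most 12.8 and 11.9. The part of these transcripts in the cluster's level was not tested.

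**Figure D5:**
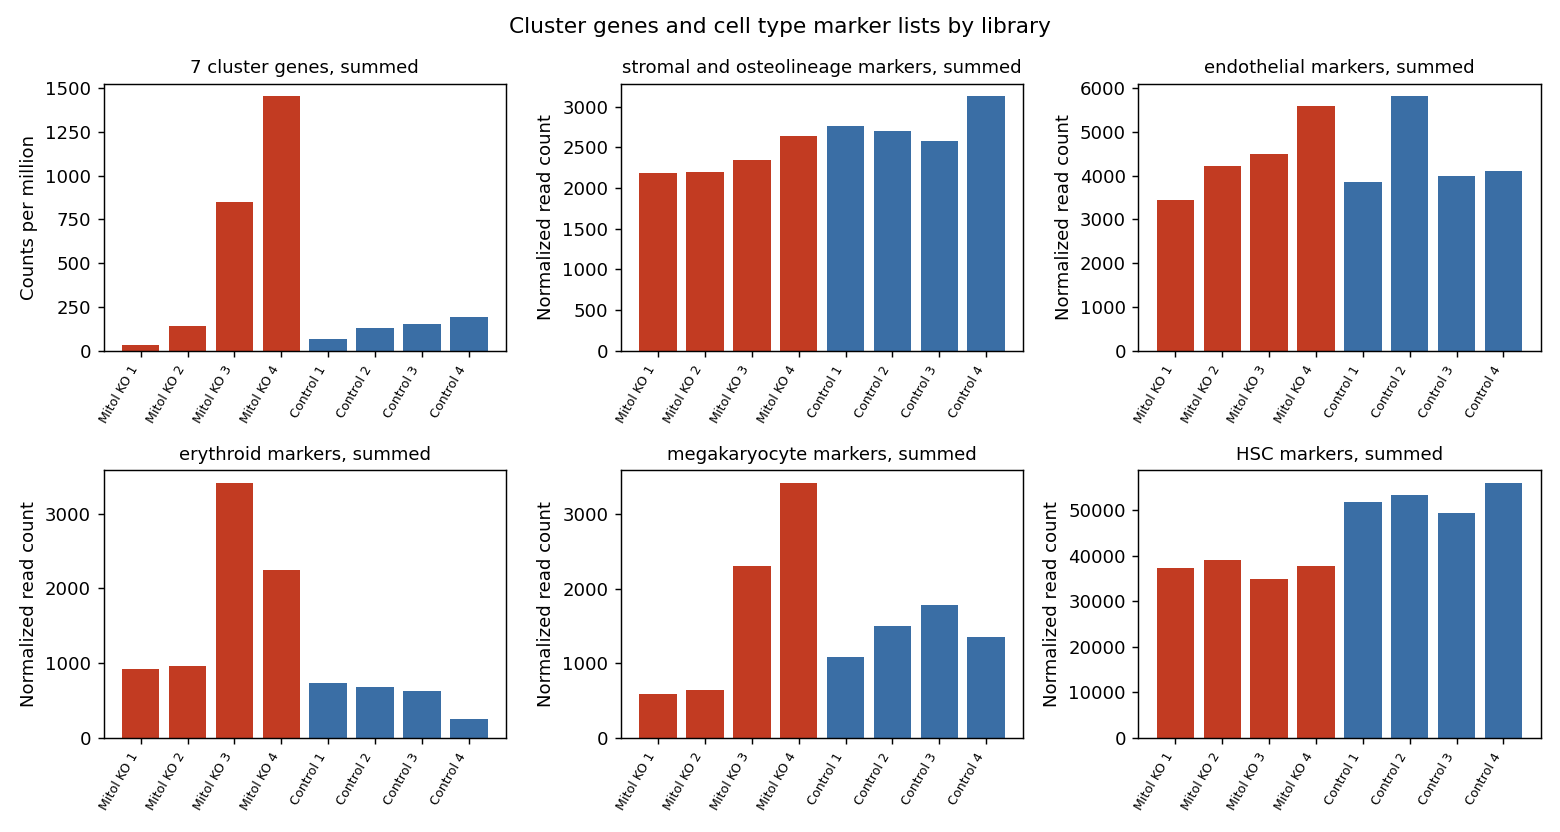
Summed CPM of the 7 cluster genes and summed normalized read counts of 5 marker lists in each library (bars, red Mitol Δ/Δ, blue control). Megakaryocyte and erythroid sums are highest in Mitol Δ/Δ libraries 3 and 4 as the cluster is, and the stromal, endothelial and HSC sums are not. Within the Mitol Δ/Δ group the stromal and endothelial sums rise from library 1 to 4 as the cluster does, without passing the highest control.

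Genes that keep imprints were compared next, from a list of 21, of which 19 were tested. In Mitol Δ/Δ HSCs 3 rose, 1 fell and 15 did not pass the threshold, and the median log2 fold change was -0.00032. These are 4 calls of 19, where 8.43% of all tested genes were called. The counts depended on the tool, with 8 higher and 1 lower at an unadjusted p under 0.05, 5 higher and 1 lower in DESeq2 and 1 in each direction in limma-voom. No share over all genes is given for these other counts, so nothing is read from them. Dnmt1, the maintenance DNA methyltransferase, had 8908, 8887, 5979 and 4270 normalized read counts in Mitol Δ/Δ HSCs and 4944, 3870, 4196 and 3143 in control HSCs (edgeR, log2 fold change 0.78, adjusted p = 0.0397, 3 of 4 libraries). Uhrf1, which brings Dnmt1 to replicated DNA, had 4748, 4715, 2645 and 1664 and 2060, 1862, 1456 and 894 (log2 fold change 1.12, edgeR adjusted p = 0.0464). In limma-voom both calls were lost (adjusted p = 0.0502 and 0.0606), and in DESeq2 that of Uhrf1 was (0.0543). Both genes were highest in Mitol Δ/Δ libraries 1 and 2, the opposite order to the cluster within that group. Ezh2, a histone methyltransferase of the Polycomb complex, rose (log2 fold change 0.63, edgeR adjusted p = 0.0209) and Tet3, which oxidizes methylated cytosine, fell (-0.31, adjusted p = 0.0409). Zfp57 and Zfp445, zinc finger proteins that bind imprinting control regions, had log2 fold changes of -0.21 and -0.07 with edgeR adjusted p of 0.686 and 0.612. DNA methylation was not measured.

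Of 27 PI3K-mTOR genes, all tested, 0 rose and 2 fell in edgeR, with a median log2 fold change of 0.01. Over all tested genes edgeR called 8.43% in either direction, so nothing about the pathway is read from the counts given here. At an unadjusted p under 0.05, 4 were higher and 2 lower, DESeq2 called 2 in each direction, and limma-voom 0 higher and 1 lower. Among those that fell was Pik3cg, a catalytic PI3K subunit (log2 fold change -0.31, edgeR adjusted p = 0.0399). Of 16 genes of Notch receptors, ligands and targets 10 were tested, with a median of -0.18. Jag1, a Notch ligand, had 346, 117, 406 and 783 normalized read counts in Mitol Δ/Δ HSCs and 142, 120, 135 and 73.6 in control HSCs (edgeR, log2 fold change 1.80, adjusted p = 0.0279, 3 of 4 libraries). The call was lost in limma-voom (log2 fold change 1.57, adjusted p = 0.0866). Over the list, edgeR called 1 higher and 1 lower, DESeq2 2 higher and 1 lower, and limma-voom 0 higher and 1 lower. With 10 genes tested, nothing about the pathway is read from these counts. The highest library of Jag1 was Mitol Δ/Δ library 4, as for Dlk1, and its lowest Mitol Δ/Δ library was 2. The receptor gene Notch2 fell (log2 fold change -0.29, edgeR adjusted p = 0.0440).

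Imprinted genes outside the cluster had a smaller spread. Of 28 listed, 20 were tested, and their SD of log2 CPM within groups was between 0.08 and 0.92. This was under the lowest of the 7 members, which were picked for their spread. In edgeR 0 rose and 2 fell, with 0 higher and 9 lower at an unadjusted p under 0.05 and 0 higher and 3 lower in DESeq2, and their median log2 fold change was -0.33. Over all tested genes edgeR called 8.43% in either direction. No such share is given for the unadjusted and DESeq2 counts, so nothing is read from these counts. Cdkn1c, a cell cycle inhibitor read from the maternal copy, had 73.6, 87.3, 50.3 and 60.3 normalized read counts in Mitol Δ/Δ HSCs and 127, 112, 112 and 159 in control HSCs (edgeR, log2 fold change -0.93, standard error 0.22, adjusted p = 0.0265, 4 of 4 libraries). Peg13, a paternally expressed noncoding RNA, fell as well (log2 fold change -0.52, edgeR adjusted p = 0.0392). Summed normalized read counts of this list were 18862 to 20631 in Mitol Δ/Δ and 20171 to 22764 in control HSCs.

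The genes whose pattern was most like that of Meg3 were sought among 12006 tested genes with a mean normalized read count of at least 50, by Pearson's r of log2 CPM over the 8 libraries. They were Rbm18 (r = 0.99), Plcl1 (0.98), Ldhd (0.97), Gda (0.97) and Abcb10 (0.96). Ldhd had 162, 527, 969 and 1459 normalized read counts in Mitol Δ/Δ HSCs and 326, 472, 491 and 377 in control HSCs, so it shared the order of the Mitol Δ/Δ libraries but spanned a smaller range. Rbm18, with the highest r, lay between 328 and 475. Those most like Dlk1 were Cebpd (r = 0.99), Gm17590 (0.98) and Cdkn2d (0.98). Cebpd, a transcription factor gene, had 36.0, 53.0, 89.7 and 117 in Mitol Δ/Δ HSCs and 29.0, 29.8, 30.1 and 36.8 in control HSCs (edgeR, log2 fold change 1.21, adjusted p = 0.0545). With 8 libraries and 12006 genes, values of r this high describe these libraries alone.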

How the data were processed

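RNA-seq was performed on 8 libraries of 100 sorted HSCs. The authors aligned reads to mm39 with STAR, merged alignments with samtools and counted reads with subread, and deposited raw read counts per gene without normalization. The annotation and strand setting are not given in the sources used here. The table holds 23094 rows of at least 11 reads in total, and 1029 rows without a symbol (0.335% to 0.467% of counts) were left out of library sizes and tests. Totals were 7214935 to 12398138. Positions came from GENCODE vM39 on GRCm39 (21525 of 22065 symbols matched) and sequences from RefSeq tables of GRCm38.p6, matched exactly to GRCm39.

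Counts were fitted in edgeR (version 4.0.16; quasi-likelihood F test) with TMM normalization, the default expression filter, condition as the sole term and Benjamini-Hochberg adjustment over 16444 genes, at an adjusted p under 0.05. Normalized read counts are counts divided by DESeq2 (version 1.42.0) size factors. Log2 CPM used a prior count of 2. The members and gene lists were chosen with earlier results of these data known. Named genes were the 7 members, list genes past the threshold, and the 5 genes most like Meg3 and 3 most like Dlk1, with Marchf5 and a few list genes named after their values were seen. Some list genes are not reported here by name. Alternatives were DESeq2, its size factors, limma-voom (limma version 3.58.1), no filter, unnamed rows kept, the replicate number as a block, another log scale or prior for correlations, each library left out, and, added after seeing the data, Mitol Δ/Δ libraries 3 and 4 left out together. Fits were tested on simulated data. The 100 cells per library and the lack of molecular identifiers limit precision.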

Additional observations from a re-analysis of the deposited data

How the results depend on the processing

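The number of genes called was 1386, and it was 2315 with DESeq2, 2422 without Mitol Δ/Δ libraries 3 and 4 together and between 359 and 2501 over the fits that lacked a single library. Dlk1 kept a higher level in Mitol Δ/Δ HSCs under every alternative run, and lost its call with limma-voom (log2 fold change 2.76, adjusted p = 0.213), without both libraries (1.20), and without control library 2 (3.87), 3 (3.92) or 4 (4.33). With both left out, which was chosen after seeing the data, the log2 fold changes turned to -1.26 for Rtl1, -0.81 for Meg3, -0.48 for Rian, -1.32 for Gm37899, -1.91 for B830012L14Rik and -0.78 for Mirg. Over the fits that each lacked a single library, log2 fold changes were between 2.47 and 4.39 for Dlk1 (adjusted p 0.0126 to 0.0768), 1.13 and 2.50 for Rtl1, 1.10 and 2.33 for Meg3, 1.48 and 2.54 for Rian, 1.30 and 2.62 for Mirg, 1.17 and 2.15 for Gm37899, and 1.45 and 2.39 for B830012L14Rik. In such fits, r was between 0.67 and 0.94 for Dlk1 and Meg3, 0.63 and 0.89 for Dlk1 and Rtl1, 0.94 and 0.98 for Meg3 and Rian, and 0.94 and 0.99 for Meg3 and Mirg. The difference in the log2 ratio of paternal to maternal reads was 1.31, and it was 2.08 for Dlk1 over Meg3 alone, 1.94 without Rtl1 and between 1.08 and 1.55 with each library left out. The cause of these shifts was not tested.

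Libraries share replicate numbers across the groups. Over all tested genes, same-numbered libraries deviated together with correlations of only 0.08, -0.07, 0.05 and 0.07. The summed counts of the cluster, scaled to CPM, rose with the number in both groups. Whether the numbers pair libraries for the cluster was not tested. With the replicate block 1652 genes were called, the Dlk1 log2 fold change was 3.19 (edgeR, adjusted p = 0.0115) and no other member was called. The standard error of Dlk1 was 0.57 with the block and 0.91 without it. Not every library correlated best with its own number. Mitol Δ/Δ library 1 had the fewest reads of the cluster, though the largest total of the 8 libraries (12398138). Mirg rested on 2 reads there and Rtl1 on 7, so these low levels carry a wide counting error.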
